A study of Mus musculus with 12 samples.

Results

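The Polo-like kinases are a family of serine/threonine kinases that carry a kinase domain and Polo-box sequences for binding phosphorylated partners. Plk1 drives mitotic entry, centrosome maturation, chromosome segregation and cytokinesis, and Plk4 starts centriole duplication. Plk2 and Plk3 were described as genes induced by mitogens and by stress, DNA damage included, and Plk5 mostly in cells that do not divide, such as neurons. The family was taken as the rows of the deposited table whose gene name was Plk1, Plk2, Plk3, Plk4 or Plk5, which gave 5 of the 29486 genes listed.

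Total mRNA was sequenced from splenic B cells of C57BL/6Babr mice in 12 libraries, 4 for each of 3 conditions. All cells were activated with lipopolysaccharide (LPS, 10 μg/ml), a mitogen for B cells. The LPS condition received nothing else, the LE condition received etoposide (20 μM, 4 h), a topoisomerase II inhibitor that leaves DNA double-strand breaks, and the LEKU condition received the ATM kinase inhibitor KU55933 (10 μM) from 1 h before the same etoposide treatment. LPS was given for 48 h before etoposide, or for 47 h before the inhibitor, and the design text places RNA isolation of the control cells, like that of the treated cells, 4 h later. No condition held KU55933 without etoposide, and the Illumina indexes of a condition were carried by no other condition, so that index and condition cannot be told apart.

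The deposited values, named normalized counts, summed to between 20400994 and 30575195 per library. Within a condition, any 2 columns had the same ratio for every gene, to within 2.7e-14 on the log2 scale. Each value is therefore a mean fitted for the condition multiplied by 1 factor per library, and no spread between replicates is left in it. Whether the values of 2 conditions overlap is thus set by the fitted means and these factors, and says nothing of agreement between replicates. The values were divided by a factor per library (0.848 to 0.978 for LPS, up to 1.29 for LE and 0.896 to 1.10 for LEKU), and the result is called the scaled value, in fitted counts. No test between conditions could be made, and differences are given by their size. Log2 fold changes are of the scaled value plus 1, and a gene was called when its fold change reached 2-fold among the 15616 genes with a scaled value of at least 10 in at least 4 libraries. The 95% intervals given are exact (Clopper-Pearson) intervals for counting error alone, with the summed deposited values rounded and treated as reads, and do not cover the spread between cultures or animals.

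The B cell markers Cd79a, Cd79b, Ms4a1, Pax5, Cd22 and Blk were all kept, and summed to 104536 with LPS, 57679 with LE and 55261 with LEKU. All 6 were lower with LE than with LPS, 3 of them past 2-fold. Of all kept genes, 4.87% were called lower and 15.3% higher with LE against LPS, with a median log2 fold change of 0.068. No marker of T cells (6 genes, sums from 11.1 to 13.6), of natural killer cells (2 genes, 1.62 to 2.52) or of neutrophils (3 genes, 0.873 to 1.10) passed the filter. The 6 macrophage markers, all kept, summed to 403 with LPS, 479 with LE and 437 with LEKU. With LE, 3 of them were called higher (Cd14, Csf1r and Cd68, at 4.96, 2.62 and 2.14 times their LPS level) and none lower, while Itgam, the most abundant with LPS, stood at a log2 fold change of −0.68. Of 6 red blood cell markers, 3 were kept and 1 was called higher with LE, with sums of the 6 from 118 to 211. The 3 plasma cell markers summed to 9755, 9189 and 7385 in the order of the conditions, but Sdc1 among them went from 133 with LPS to 1998 with LE and 644 with LEKU, while Prdm1 and Xbp1 had log2 fold changes of −0.38 and −0.43 with LE. The part of these markers in the results on the kinases was not tested. In these bulk libraries, fewer cells of a type and less RNA per cell cannot be told apart.

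All 5 kinases passed the filter, Plk5 only through its level with LE. Its calls in the comparisons with LE therefore follow in part from the filter. With etoposide, 2 were called higher (Plk2 and Plk5) and 1 lower (Plk1), where 15.3% of all kept genes were called higher and 4.87% lower. Adding KU55933 to etoposide left 1 member called, Plk5, which was lower than with etoposide alone, against 1.69% of kept genes called higher and 4.73% lower. With both agents against LPS, the same 3 members were called in the same directions as with etoposide (2 higher, 1 lower; Plk5 was not called after quantile normalization or with 5 added to the values), where 12.3% of kept genes were called higher and 5.03% lower. The last 2 comparisons share libraries with the comparison of LE with LPS. The split of all calls between LE and LPS depends on the scaling. It was 2396 higher and 760 lower as given, 2037 and 1159 with factors set on all genes, 1726 and 1357 after quantile normalization, and 3073 and 403 in the columns as deposited. For LEKU against LE it was 264 higher and 738 lower as given, and 378 and 580 after quantile normalization. For LEKU against LPS it was 1920 and 786 as given, 1567 and 1067 with factors set on all genes, 1295 and 1087 after quantile normalization, and 2397 and 534 in the deposited columns.

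**Figure D1:**
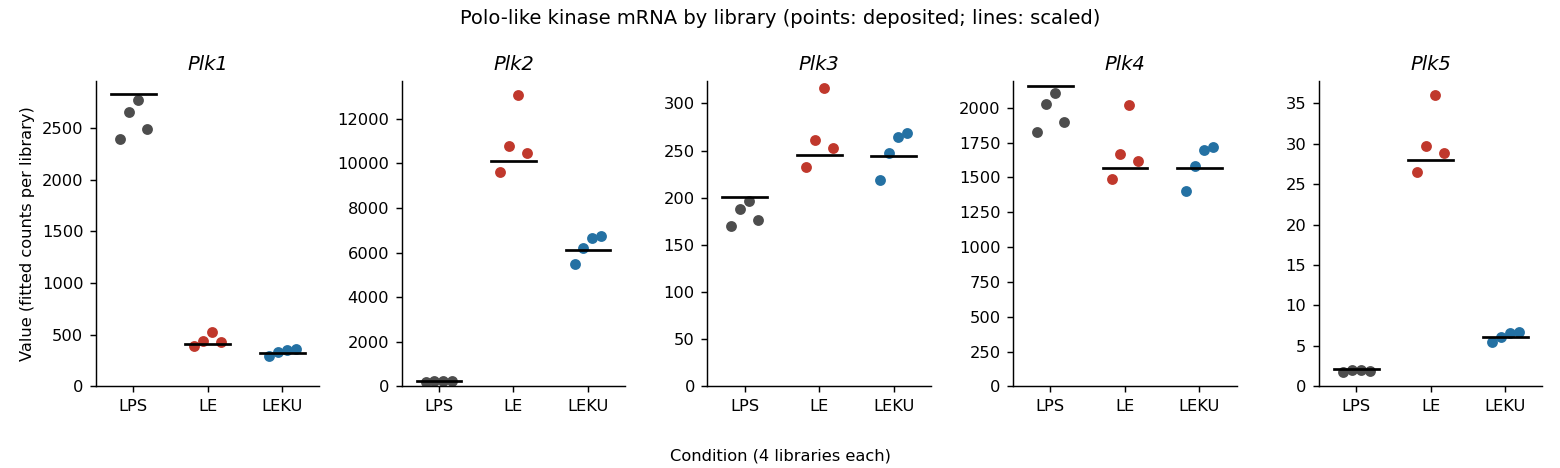
Values of the 5 Polo-like kinase genes in fitted counts (vertical axis from 0, a scale for each gene) in the LPS, LE and LEKU conditions. Points are the deposited values of the 4 libraries and differ within a condition only by the library factor, and lines are the scaled values. Plk1 goes from 2829 with LPS to 412 with LE, while Plk2 goes from 253 to 10107.

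Per length, the family turned from mostly Plk1 to mostly Plk2. Divided by the length of all annotated exons in kb, the scaled values with LPS were 1286 for Plk1, 314 for Plk4, 79.2 for Plk3, 56.4 for Plk2 and 0.789 for Plk5. With LE the order was Plk2 (2251), Plk4 (229), Plk1 (187), Plk3 (96.9) and Plk5 (10.4), and with LEKU it was the same, with 1365, 228, 149, 96.6 and 2.28. Plk1 made up 74.1% of the family's sum per kb with LPS, 6.76% with LE and 8.10% with LEKU. Plk2 made up 3.25%, 81.1% and 74.1%. Plk1 stood at 22.8 times the level of Plk2 per kb with LPS, and Plk2 at 12.0 times that of Plk1 with LE. With the length of the longest annotated transcript in place of all exons, Plk1 made up 61.9% with LPS and Plk2 82.8% with LE, Plk2 (90.4 per kb) stood above Plk3 (79.8) with LPS, and the order with LE and LEKU was as above. The closest neighbours with all exons were Plk4 and Plk1 with LE, at a ratio of 1.22 per kb that was 2.40 with the longest transcript, and without a spread between replicates it cannot be said which neighbours differ beyond it. The mitotic pair Plk1 and Plk4 summed to 1601, 416 and 377 per kb. The pair described as stress-induced, Plk2 and Plk3, summed to 136, 2347 and 1461. Most of these changes lay in Plk1 and Plk2, since Plk4 (314, 229 and 228) and Plk3 (79.2, 96.9 and 96.6) changed far less.

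**Figure D2:**
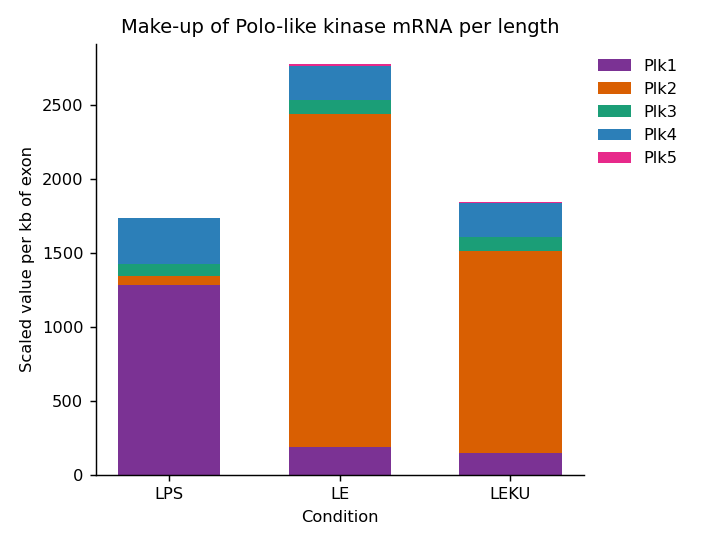
Scaled value per kb of annotated exon (vertical axis) of the 5 kinases, stacked, in each condition. Plk1 makes up 74.1% of the bar with LPS, and Plk2 81.1% with LE and 74.1% with LEKU.

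Plk1 (ENSMUSG00000030867) lies on chromosome 7 of GRCm38 from 122159439 to 122169873, on the plus strand. Its deposited values were 2398, 2661, 2768 and 2494 in LPS replicates 1 to 4, 392, 439, 532 and 426 in the LE replicates, and 294, 331, 355 and 361 in the LEKU replicates. The LPS values lie above those of both treated conditions, and the LEKU values below those with LE. This order is set by the fitted means and library factors. The scaled value was 2829 with LPS, 412 with LE and 328 with LEKU. Etoposide left 14.6% of the LPS level, a log2 fold change of −2.78, and counting error alone gives this share a ratio of 0.138 to 0.153. Only 2 of the 15616 kept genes had a lower fold change in this comparison. With KU55933, Plk1 stood at 79.5% of its level with LE (log2 fold change −0.33, interval of the ratio 0.740 to 0.854) and did not reach 2-fold. Against LPS, the cells with both agents had a log2 fold change of −3.11, and again 2 kept genes were lower. Per kb, Plk1 lay above 92.9% of kept genes with LPS and above 58.5% with LE.

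The window from 250 bases before to 50 bases after the Plk1 start site held the letters of a pair of elements common in promoters of mitotic genes. The CHR (cell cycle genes homology region), read by the DREAM and MuvB complexes, was searched as TTTGAA, and the CCAAT box, bound by NF-Y, as CCAAT, each on both strands. They are shown in capitals because Plk1 was the only member called lower with etoposide, in RefSeq sequence of GRCm38.p6, plus strand. A link between these letters and the level of Plk1 was not tested. The CCAAT letters lie 14 to 10 bases before the start site (chr7:122159412-122159434) and the CHR letters 31 to 36 bases after it (chr7:122159456-122159479).
Plk1 CCAAT box: tccccgcggCCAATcagcaacgc
Plk1 CHR: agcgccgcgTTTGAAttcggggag
Of 32851 such windows in the table, 17.9% hold the CHR letters and 37.4% the CCAAT letters, so that a match by itself is common. No other member's window held the CHR letters. Plk5, which was called higher with etoposide, was the other member with CCAAT (5 to 1 bases before its start site, chr10:80356445-80356467).
Plk5 CCAAT box: ccccactctCCAATaagacccgc

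A processed pseudogene of Plk1 was higher with etoposide. Plk-ps1 (ENSMUSG00000083907, chromosome 5, 35554184 to 35555970, plus strand) shares 93.4% identity over 1815 aligned bases with the longest annotated Plk1 transcript. Its deposited values ranged from 56.0 to 64.6 with LPS, from 182 to 247 with LE and from 146 to 179 with LEKU, and its scaled values were 66.0, 192 and 163. That the values with LPS lie below all those with etoposide is again set by the fitted means and library factors. The log2 fold change with LE was 1.52, a ratio of 2.90. Per kb its level was 2.87% of that of Plk1 with LPS, 57.2% with LE and 61.1% with LEKU. How reads that fit both sequences were counted is not given in the sources used here, and how they divide between the 2 genes was not tested. For transcripts of other genes, identity was taken over the best alignment to Plk1 as a whole. By this measure 1 gene was at least 95% identical over at least 100 bases, the length of a read. It is Gm44985, which lies on the opposite strand at the Plk1 locus and shares up to 156 exonic bases, and was not analysed here. Stretches of read length within the longer alignment of Plk-ps1 were not examined, and some of them may be more alike than the whole.

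Plk2 (ENSMUSG00000021701, chromosome 13, 110395046 to 110400844, plus strand) encodes a kinase first known from serum stimulation of fibroblasts. Its deposited values were 215, 238, 248 and 223 in the LPS replicates, 9607, 10767, 13041 and 10438 with LE, and 5492, 6193, 6634 and 6743 with LEKU. The LEKU values lie between those with LPS and LE, which is set by the fitted means and library factors and shows no agreement between replicates. The scaled value went from 253 to 10107 with etoposide, 39.9 times the LPS level (counting interval 37.4 to 42.6, log2 fold change 5.31), and 21 kept genes had a larger fold change. In total counts, not corrected for length, Plk2 moved from above 42.2% of kept genes to above 98.2%. With KU55933 the scaled value was 6129, which is 60.6% of that with LE (interval of the ratio 0.597 to 0.616, log2 fold change −0.72) and short of 2-fold. Of the kept genes, 8.75% had a lower fold change between LEKU and LE. Against LPS, Plk2 with both agents was still 24.2 times higher, and 13 kept genes exceeded it.

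In the same window around the start site, Plk2 held a complete cAMP response element, the palindrome TGACGTCA to which CREB and ATF factors bind, which 1.79% of the 32851 windows hold. It lies 62 to 55 bases before the start site, inside chr13:110394973-110394998 (GRCm38.p6, RefSeq, plus strand). The element is shown in capitals because Plk2 was the member that was highest after etoposide.
Plk2 CRE: cgctcgccgTGACGTCAcgaggcccc
The other 4 members' windows did not hold these letters. A p53 half-site was in no member's window, against 8.36% of all windows, and neither was the CArG box of serum response factor, against 1.63%. These searches cover the letters in the window only, and a link between the letters and the level of Plk2 was not tested.

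**Figure D3:**
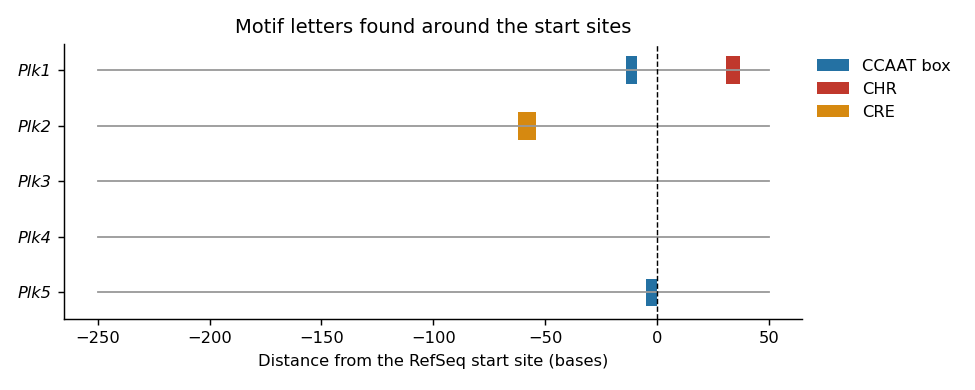
Positions of the motif letters found on either strand in the window from 250 bases before to 50 bases after the RefSeq start site of each member (horizontal axis, distance in bases, dashed line at the start site). Plk1 holds a CCAAT box and a CHR, Plk2 a CRE, Plk5 a CCAAT box, and Plk3 and Plk4 none of the 5 motifs searched.

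Plk5 (ENSMUSG00000035486, chromosome 10, 80356459 to 80365489, plus strand) was near the lower end of detection with LPS. It was kept only for its LE level, so its place among kept genes follows in part from the filter. Its deposited values were 1.79, 1.99, 2.07 and 1.86 with LPS, 26.5, 29.7, 36.0 and 28.8 with LE, and 5.46, 6.16, 6.60 and 6.71 with LEKU. As for Plk2, the LEKU values lie between the others, but much nearer to LPS. The scaled values were 2.11, 27.9 and 6.10. The 4 LPS libraries together hold a fitted 7.71 counts, so that the ratio of 13.2 between LE and LPS has a counting interval from 6.25 to 30.1. With KU55933 Plk5 stood at 21.8% of its LE level (interval of the ratio 0.137 to 0.339, log2 fold change −2.03), and 103 kept genes were lower. The ratio of 2.88 between LEKU and LPS has an interval from 1.22 to 7.15. Its log2 fold change of 1.19 against LPS fell short of 2-fold when 5 in place of 1 was added to the values (0.64) and after quantile normalization (0.89).

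Plk3 (ENSMUSG00000028680, chromosome 4, 117128655 to 117133963, minus strand), the kinase grouped with Plk2 as stress-induced, did not reach 2-fold in any comparison. Its deposited values were 169.9, 188, 196 and 177 with LPS, 233, 261, 316 and 253 with LE, and 219, 247, 265 and 269 with LEKU. With their library factors, the LPS values lie below the others, and LE and LEKU overlap. The scaled values were 200.4, 245 and 244, a ratio of 1.22 between LE and LPS (counting interval 1.11 to 1.35, log2 fold change 0.29), and 35.5% of kept genes had a larger fold change. Under the other scalings the log2 fold change lay between 0.10 and 0.54. LEKU and LE differed by a ratio of 0.997 (interval 0.913 to 1.09), and the sign of that difference flips with the scaling. Plk3 shares up to 84 exonic bases with Tctex1d4 on the opposite strand, whose scaled values were 1.33, 2.15 and 2.31.

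Plk4 (ENSMUSG00000025758, chromosome 3, 40800019 to 40816883, plus strand), the kinase of centriole duplication, was lower with etoposide but within 2-fold. Its deposited values were 1826, 2026, 2108 and 1899 with LPS, 1489.6, 1669.6, 2022 and 1619 with LE, and 1402, 1581, 1694 and 1722 with LEKU. With their library factors, before scaling, the LE values overlap those of both other conditions, and the LEKU values lie below all LPS values. The scaled values were 2155, 1567 and 1565. LE stood at 72.7% of LPS (interval of the ratio 0.704 to 0.752, log2 fold change −0.46), with 18.1% of kept genes lower, and between −0.63 and −0.21 on the log2 scale under the other scalings. LEKU stood at 99.8% of LE, a ratio with a counting interval from 0.965 to 1.03, and the sign of this difference also depends on the scaling. A copy of Plk4 in the annotation, Gm9742, is 94.1% identical over 1410 bases and was not analysed here.

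**Figure D4:**
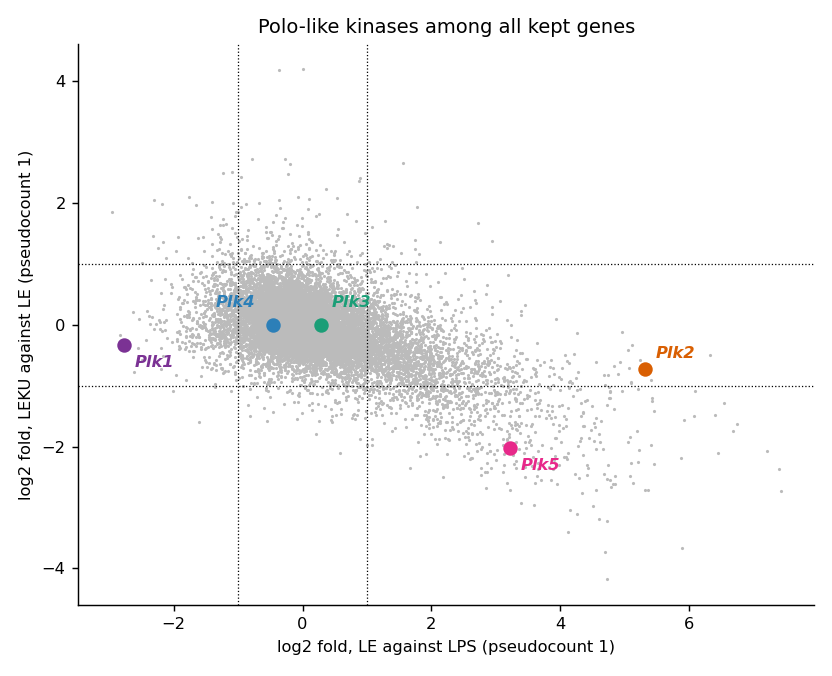
Log2 fold change of LE against LPS (horizontal axis) and of LEKU against LE (vertical axis) for the 15616 kept genes (grey) and the 5 kinases (coloured), dotted lines at 2-fold. Both axes use the LE libraries. Plk1 lies at the left edge (−2.78) and Plk2 at the right (5.31), while Plk5 (−2.03) is the only kinase below the lower dotted line. Plk5 passed the filter only through its LE level.

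The genes that work with Plk1 were lower with etoposide as a list, but none of them as far as Plk1. Of 30 activators, substrates and partners, 25 were below their LPS level, 12 of them past 2-fold, and 1 was higher past 2-fold, with a median log2 fold change of −0.78 against 0.068 for all kept genes (between −0.11 and 0.32 under the other scalings, where the list's median lay between −0.95 and −0.52). Of all kept genes, 4.87% were called lower and 15.3% higher. The cyclins Ccnb1 and Ccnb2, which activate Cdk1 at mitotic entry, were 3.49 and 2.99 times lower with LE than with LPS. Aurka, the kinase that activates Plk1, was 3.42 times lower, from a scaled value of 1733 to 507. The gene called higher was Ninl, a centrosomal substrate of Plk1 (from 43.4 to 130 counts, log2 fold change 1.56), named after its value was seen. With KU55933 in addition, 23 of the 30 were below their LE level and the median was −0.37, against −0.052 for all kept genes. The 2 called lower were Cdc20 (−1.30), the activator of the anaphase-promoting complex, and Kif20a (−1.18), a kinesin of cytokinesis, both also named after their values were seen. Of all kept genes, 4.73% were called lower in this comparison. Against LPS, 19 of the 30 were called lower with both agents and 1 higher, with a median of −1.36. Of all kept genes, 5.03% were called lower and 12.3% higher, with a median of 0.092.

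Markers of proliferation were lower in the same comparisons. The 8 genes Mki67, Pcna and Mcm2 to Mcm7 were all lower with LE than with LPS (median −0.42, none past 2-fold). In this comparison 7 of 8 were lower with library totals, and 5 of 8 in the columns as deposited or after quantile normalization. All 8 were also lower with LEKU than with LE (median −0.45, 1 past 2-fold). Against LPS, all 8 were lower with LEKU (median −0.72, 2 past 2-fold). Their sums were 91276, 68495 and 45722 for LPS, LE and LEKU. Of all kept genes, 4.87% were called lower in LE against LPS, 4.73% in LEKU against LE and 5.03% in LEKU against LPS. The medians of all kept genes were 0.068, −0.052 and 0.092 in the same order. The part of the 8 markers in the values of Plk1 was not tested.

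The genes that build centrioles with Plk4 stayed within 2-fold for 18 of 19 genes with LE, with 15 below their LPS level and a median of −0.20, which was 0.053 in the columns as deposited. For all kept genes these medians were 0.068 and 0.32, with 15.3% called higher and 4.87% lower as given. The listed gene past 2-fold was Ccp110, a cap protein of centrioles, at 2.93 times its LPS level. Cep192, which recruits Plk4 to the centriole, had the lowest value of the list (−0.86), and Stil, the partner of Plk4 in cartwheel assembly, was at −0.79. Both were named after their values were seen. With LEKU against LE none of the 19 was called, and the median was 0.083. Of all kept genes, 1.69% were called higher and 4.73% lower, with a median of −0.052. Against LPS, 1 of the 19 was called higher with both agents and none lower, with a median of −0.16. Of all kept genes, 12.3% were called higher and 5.03% lower, with a median of 0.092. In the columns as deposited the list's medians in these comparisons also changed sign, to −0.0029 and 0.0069.

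Targets of p53, the list set beside Plk2, were called higher with etoposide for 19 of 21 genes, with a median log2 fold change of 2.84. Of all kept genes, 15.3% were called higher, with a median of 0.068. Plk2 at 5.31 lay above each of the 21 on this scale, whose highest value was 5.23 for Perp, while without the added 1 Perp was 45.7 times higher with LE, from a scaled value of 4.47, and Plk2 39.9 times. Cdkn1a, the p21 inhibitor of cyclin-dependent kinases, was 34.6 times higher with LE than with LPS, Phlda3, an inhibitor of Akt signalling, 31.4 times, and Tnfrsf10b, a death receptor for TRAIL, 17.2 times. With KU55933, 18 of the 21 were below their LE level, 2 of them past 2-fold (Perp at −2.05 and Eda2r at −1.20, named after their values were seen), and the median was −0.59. For all kept genes the median was −0.052, with 4.73% called lower. The value of Plk2 in this comparison was −0.72, and that of Plk3 −0.0045. Against LPS, 19 of the 21 were called higher with both agents, with a median of 2.27. Of all kept genes, 12.3% were called higher, with a median of 0.092.

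Immediate early genes, transcription factors and regulators that respond to mitogens and stress, were called higher with LE for 10 of 17, with a median of 1.26. Of all kept genes, 15.3% were called higher, with a median of 0.068. Fos and Fosl1, subunits of AP-1, were 15.5 and 15.4 times their LPS level and the nuclear receptor Nr4a2 9.55 times. Plk3, with 0.29, lay below the list's median, and Plk2 above its highest value of 3.93. With KU55933 none was called higher and 3 were called lower than with LE, namely Fosl1 (−2.36), Egr1 (−2.12) and Egr2 (−1.97), and the median was 0.093. Egr1 and Egr2 were named after their values were seen. Of all kept genes, 1.69% were called higher and 4.73% lower, with a median of −0.052. Against LPS, 11 of the 17 were called higher with both agents, with a median of 1.53, where 12.3% of kept genes were called higher and the median was 0.092.

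**Figure D5:**
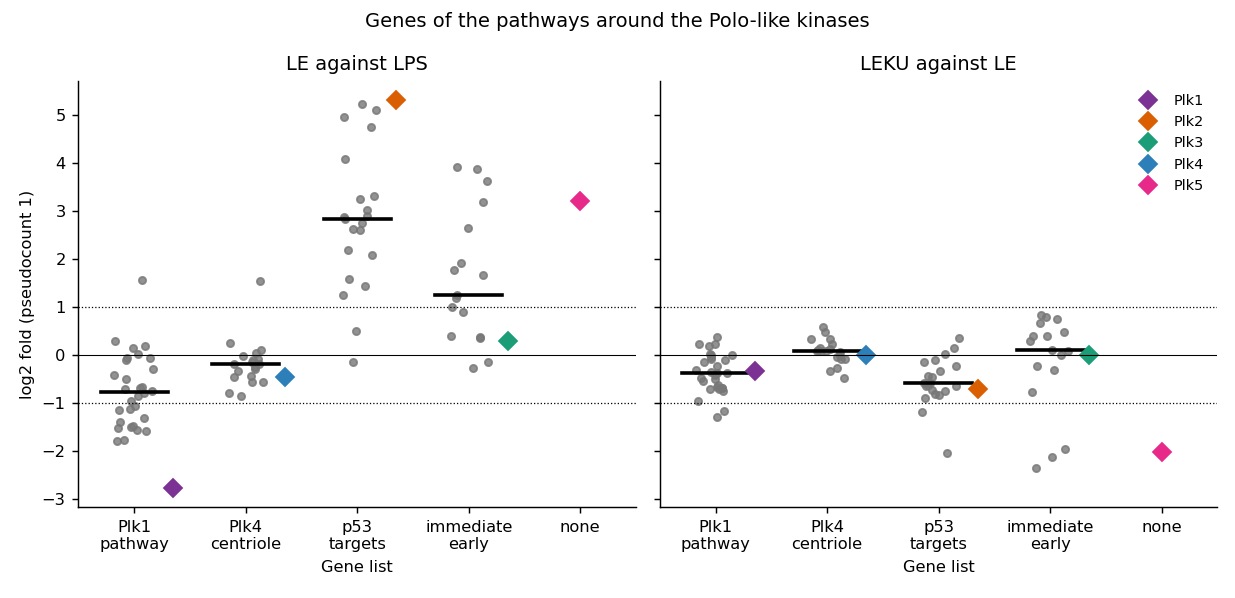
Log2 fold changes (vertical axis) of the genes of 4 lists (grey points, black line at the median) in LE against LPS and LEKU against LE, dotted lines at 2-fold. Coloured diamonds mark the kinases, each beside the list nearest to its role, with Plk5 beside none. With LE, Plk1 (−2.78) lies below all genes of its list and Plk2 (5.31) above all p53 targets on the scale of values plus 1.

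Genes with the pattern most like each kinase were looked for among the 10875 kept genes with a mean scaled value of at least 100, by the Euclidean distance of their log2 fold changes of LE and of LEKU against LPS, over 3 conditions. Plk1 and Plk2 had few close neighbours, which follows from the size of their fold changes and is no further result about their patterns. Within a distance of 0.25, Plk1 had 1 other gene, the DNA helicase Pif1 (distance 0.11, scaled values 1037, 144 and 128 for LPS, LE and LEKU), followed by the protease inhibitor Serpinb1a (0.29) and the chemokine scavenger Ackr2 (0.32). Plk2 had 2, the Notch target Heyl (0.10) and the cytokine Lif (0.13), which start from scaled values of 4.86 and 9.39 with LPS, and then Fam212b (0.26), which went from 103 to 3464 with LE and stood at 2610 with LEKU. Plk3 and Plk4, whose fold changes were small like those of many genes, had 1545 and 1108 genes within the same distance. Their closest genes were Med23, Npepl1 and Zbtb1 for Plk3 (distances from 0.0089 to 0.011) and Tbcd, Mrpl55 and Ostf1 for Plk4 (0.010 to 0.013). Plk5, with a mean scaled value of 12.0, was not compared.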

How the data were processed

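mRNAseq libraries (polyA RNA, single-end reads of 100 bases) were made by the authors, who trimmed reads with Trim Galore and cutadapt 1.2.1, mapped them to GRCm38 with TopHat2 2.0.12, counted them on Ensembl release 78 genes with HTSeq and fitted DESeq2 1.6.3, as the methods and the submitters' processing notes state. The counting mode was not given in the sources used here. The deposited signal, named normalized counts, was the fitted mean of a condition times a factor per library. No value was 0 and the lowest was 0.0635. The DESeq2 version of the authors by default moderates fold changes toward 0, most for low counts. The deposited comparisons of the authors (3 tables of mean, fold change, standard error, Wald statistic and p-values) were not used.

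Factors per library were the median over 10892 genes with a mean above 100 of the ratio to the gene's geometric mean. Calls were by a 2-fold rule, since a limma test was foreseen only for columns that vary within a condition beyond 1 factor per library, and these did not. Exon lengths came from GENCODE M21 (GRCm38), which covers 99.5% of kept genes, and start-site windows from RefSeq (GRCm38.p6), where all 5 members matched. Transcripts were compared with blastn 2.17.0. Scripts ran in Python 3.11.15 with pandas 2.3.3, scipy 1.17.1 and numpy 2.4.6, and plots were drawn in matplotlib 3.10.9. The functions were tested on simulated data.

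Named genes were the 5 kinases, for each kinase with a mean of at least 100 the 3 genes nearest in pattern, and for each of 4 pathway lists up to 3 genes with the largest change each way past 2-fold with etoposide and a mean of at least 100. The members, lists and rules were chosen with earlier results of these data known, and the lists were written from general knowledge. Alternatives were TMM factors, library totals, quantile normalization, the columns as deposited, pseudocounts of 0.5 and 5, no filter or a minimum of 50, thresholds of 1.5-fold and 3-fold, and each library left out. Factors set on all genes and lengths of the longest transcript were added after seeing the data. One B cell marker of the list is not reported here.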

Additional observations from a re-analysis of the deposited data

How the results depend on the processing

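No paired analysis was possible because the deposited columns hold 1 fitted mean per condition, so that libraries with the same replicate number share no deviation. For the same reason, leaving out a library changes only the scaling: none of the counts moved by over 1.5 times in 216 such repeats, and this says nothing of the spread between replicates. The scaling shifted the median of all kept genes between LE and LPS by −0.17 (factors on all genes) to 0.25 (columns as deposited) on the log2 scale. Over the 5 scalings, the log2 fold changes of LE against LPS lay between −2.95 and −2.53 for Plk1, 5.14 and 5.56 for Plk2 and 2.73 and 3.42 for Plk5. For LEKU against LPS they lay between 0.89 and 1.30 for Plk5. Between LEKU and LE they lay between −0.41 and −0.27 for Plk1, −0.81 and −0.63 for Plk2, −0.090 and 0.053 for Plk3, and −0.088 and 0.055 for Plk4. Of the member fold changes, 35 of 342 repeats moved beyond the counting interval, and no called fold change changed sign.

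With a minimum of 50, which drops Plk5, no member was called in LEKU against LE, where all kept genes gave 622 calls. At 1.5-fold, 2 members (Plk2 and Plk5) were called there. All genes gave 5872 calls at 1.5-fold and 1554 at 3-fold for LE against LPS, 2953 and 286 for LEKU against LE, and 5627 and 1002 for LEKU against LPS. For the Plk1 list the counts at 1.5-fold and 3-fold were 20 and 2 for LE against LPS and 10 and 0 for LEKU against LE, and 10 at 3-fold for LEKU against LPS. For the Plk4 list they were 3 and 0 for LE against LPS and 4 and 0 for LEKU against LPS, while factors on all genes gave 2 and 0 calls in these comparisons and TMM factors 0 in the latter. The p53 targets gave 12 and 1 for LEKU against LE, and the immediate early genes 8 at 1.5-fold for LEKU against LE and 7 at 3-fold for LEKU against LPS. At other thresholds and minimums the rule itself makes the difference, and under other factors the cause was not tested.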

Other observations

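Mplkip, a gene on chromosome 13 that the deposited descriptions name as an interactor of PLK1 in M phase, went with the mitotic genes. Its scaled value was 529 with LPS, 226 with LE and 204 with LEKU, with log2 fold changes of −1.22 for LE against LPS and −0.15 for LEKU against LE. It was found by its description and is in none of the lists.

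The pseudogene Plk-ps1 lies 232 bases from Trmt44, a tRNA methyltransferase gene on the opposite strand. The scaled values of Trmt44 were 287, 386 and 312 for LPS, LE and LEKU, a log2 fold change of 0.42 for LE against LPS, beside 1.52 for Plk-ps1. Gm43860, 219 bases away on the other side, was not analysed here.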
